A study of Mus musculus with 6 samples.

Results

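The interferon response genes of the mouse oviduct were described in each of 6 RNA libraries. They were 54 genes known to respond to type I or type II interferon, chosen by symbol, and all 54 were found among the 55276 rows of the table. They were set out as antiviral genes (13 genes of the Oas, Ifit and Mx families), GTPase genes (11 genes of the Gbp and Irg families) and 30 others, namely the p200 genes, the Isg15 system, nucleic acid sensors, transcription factors and other effectors.

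Whole oviducts were taken from adult females, labelled C57BL/6, on day 2 of pregnancy. PgrCreCdc42f/f mice (3 libraries) have exon 2 of Cdc42 flanked by loxP sites on both alleles, together with a Cre recombinase expressed from the progesterone receptor gene Pgr, and Cdc42f/f littermates (3 libraries) carry the same floxed alleles without Cre. There was no group with PgrCre alone, so Cre and the loss of Cdc42 cannot be told apart. By the study's immunostaining the protein was lost from the isthmus and kept in the ampulla, so a library of the whole organ holds both kinds of tissue. The number of animals in a library is not stated. In whole tissue, fewer cells of a type and less RNA per cell cannot be told apart.

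Interferons are secreted proteins that bind receptors on nearly every cell. Type I interferons signal through Ifnar1 and Ifnar2, and Jak1 and Tyk2 then activate a complex that contains Stat2 and Irf9 and binds the interferon-stimulated response element of its target promoters. Type II interferon, the product of Ifng, signals through Ifngr1 and Ifngr2, and its targets carry the gamma-activated site. The targets include enzymes and binding proteins that act on viral RNA (Oas, Ifit), dynamin-like GTPases (Mx), and the guanylate-binding proteins and immunity-related GTPases (Gbp, Irg), which act on the vacuoles of intracellular microbes.

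The response elements can be read in the promoters of the members, which are shown here for members that hold them. RefSeq promoter windows (GRCm38.p6, 250 bases before the start site to 50 after it) were matched for 39 of the 54 members. The core of the response element was searched as GAAANNGAAA and that of the gamma-activated site as TTCNNNGAA, on both strands. In the stretches below, 5′ to 3′ on the strand of the gene, capitals mark these matches.
Isg15 (chr4:156200864-156200913, minus strand): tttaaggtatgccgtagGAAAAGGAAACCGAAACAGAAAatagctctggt
Ifit1 (chr19:34640774-34640823, plus strand): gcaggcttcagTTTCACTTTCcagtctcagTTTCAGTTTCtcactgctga
Ifit3 (chr19:34583364-34583423, plus strand): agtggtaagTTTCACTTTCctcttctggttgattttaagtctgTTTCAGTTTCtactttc
Oas1a (chr5:120907526-120907570, minus strand): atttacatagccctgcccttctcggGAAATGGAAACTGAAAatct
Gbp2 (chr3:142620588-142620627, plus strand): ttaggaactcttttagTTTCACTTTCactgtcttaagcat
Igtp (chr11:58199496-58199545, plus strand): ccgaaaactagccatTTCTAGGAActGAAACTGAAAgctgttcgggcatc
Irgm2 (chr11:58214887-58214936, plus strand): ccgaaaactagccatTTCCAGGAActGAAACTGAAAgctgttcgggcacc
Ifi213 (chr1:173599323-173599357, minus strand): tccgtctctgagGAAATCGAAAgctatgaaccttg
Ifi205 (chr1:174031866-174031900, minus strand): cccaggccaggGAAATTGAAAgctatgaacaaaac

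GAAANNGAAA was present in 26 of the 39 members with a window (66.7%), against 3.99% of all 27025 genes with a window. It was present in 6 of 9 antiviral genes and in 7 of 8 GTPase genes. Isg15 held 3 overlapping matches, and Ifit1, Ifit3 and Ifit3b held 2 each. TTCNNNGAA was present in 10 of the 39 members (25.6%), against 9.55% of all genes with a window. It was found in 2 of 9 antiviral genes and in 4 of 8 GTPase genes, and all 4 of those GTPase genes (Gbp5, Gbp7, Igtp and Irgm2) held both motifs. The stretches of Igtp and Irgm2 were identical at 48 of 50 bases. The motifs overlapped in Bst2. A match is a description of the letters and not a binding site.

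The 6 libraries were of similar depth, at 39.1 to 43.5 M recovered reads, and 1 read in a 2-kb gene corresponded to 0.0104 to 0.0118 RPKM (reads per kilobase of gene, scaled to the depth of the library). Cdc42 itself was at 114, 126 and 121 RPKM in the PgrCreCdc42f/f oviducts, against 128, 130 and 142 RPKM in the Cdc42f/f oviducts. The Cdc42 groups did not overlap, but the difference did not pass limma's test (log2 difference -0.15, SE 0.08, adjusted p = 0.359). The value covers all exons of the gene, whereas loxP sites flank exon 2 alone, so it is not a measure of the deletion. The study itself found CDC42 reduced by qPCR and western blot. Each log2 difference is the mean log2(RPKM + 0.1) of the PgrCreCdc42f/f libraries less that of the controls, so a positive value means higher in PgrCreCdc42f/f. Markers of the oviduct epithelium (Epcam, Krt8, Krt18 and Cdh1) summed to 894, 1002 and 993 RPKM in PgrCreCdc42f/f and to 863, 969 and 841 RPKM in Cdc42f/f. Epcam, Krt8 and Cdh1 were above every control in all 3 PgrCreCdc42f/f libraries, as were 13.5% of all tested genes. Krt18 was not, and 0 of the 4 were called.

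For the interferon response genes 1 library stood far from the other 5, and this was PgrCreCdc42f/f replicate 3. It was the highest of the 6 libraries for 53 of the 54 members. The members summed to 804, 958 and 3987 RPKM in PgrCreCdc42f/f replicates 1, 2 and 3, against 862, 770 and 890 RPKM in the Cdc42f/f replicates. PgrCreCdc42f/f replicates 1 and 2 were thus close to the controls in the summed level. A gene was said to stand apart in a library when it was at least 1 above, on the log2(RPKM + 0.1) scale, each of the other 5 libraries. In PgrCreCdc42f/f replicate 3 this held for 48 of 54 members, against 0.756% of all 17584 tested genes. In the other libraries it held for 0 members, where the background over all genes was 0.188% for PgrCreCdc42f/f replicate 1, 0.205% for PgrCreCdc42f/f replicate 2 and 0.171%, 0.222% and 0.108% in Cdc42f/f replicates 1, 2 and 3. Of the 133 genes that stood apart in PgrCreCdc42f/f replicate 3, 48 were members, 28 were on a list of other interferon-stimulated genes and 5 on a list of antigen presentation and type II interferon genes, while 49 were on none of the lists.

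**Figure D1:**
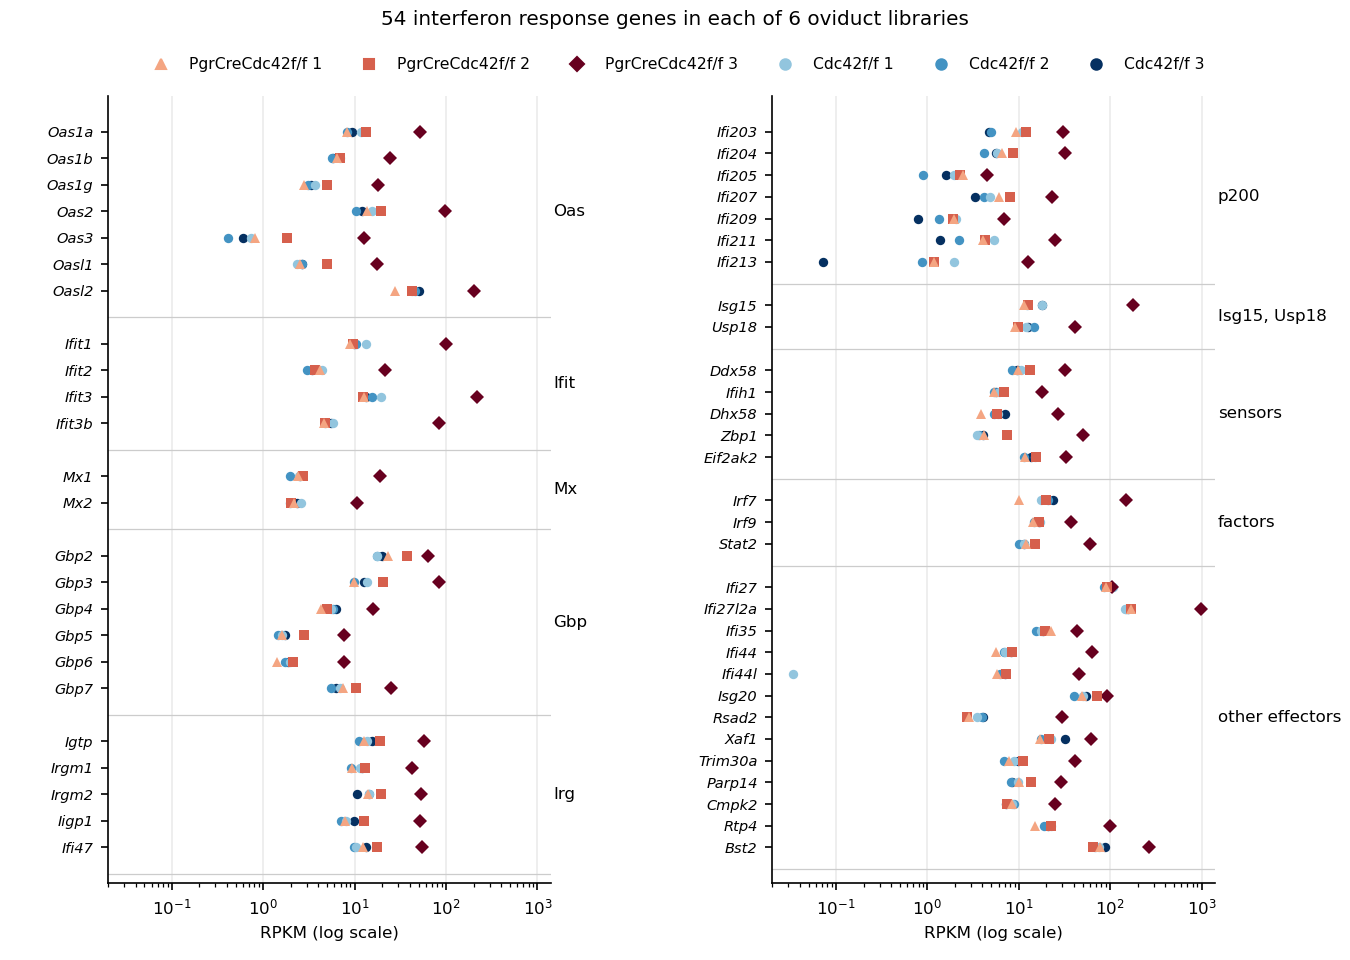
Each point is the RPKM (log scale) of a member in 1 library, with the 54 members in rows by family, PgrCreCdc42f/f libraries in red and Cdc42f/f libraries in blue. The dark diamonds of PgrCreCdc42f/f replicate 3 lie to the right of all other points in 53 rows, and Ifi27 is the exception.

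The test across genotypes called no member. The fit was made with limma over all 17584 tested genes, with a call where the adjusted p was below 0.05, and it gave 134 higher genes (0.762%) and 157 lower genes (0.893%). Among the members 0 were called higher and 0 lower, and the smallest adjusted p was 0.150, for Gbp2. Before adjustment 5 members had p below 0.05 and were higher (Gbp2, Gbp7, Ifi203, Ifi205 and Ifi207), which is 9.26% of the members against 9.74% of all tested genes. The log2 difference was positive for 53 of 54 members, against 50.9% of all tested genes, with a median of 0.90. Without PgrCreCdc42f/f replicate 3 it was positive for 35 members, the median was 0.14 and again 0 were called.

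The groups did not overlap for 11 members, all higher in PgrCreCdc42f/f (20.4%), against 13.5% of all tested genes. These were Oas3, Gbp2, Gbp7, Ifi204, Ifi205, Ifi207, Zbp1, Stat2, Ifi27l2a, Ifi35 and Parp14. Each PgrCreCdc42f/f library was then set against the 3 controls by itself. Replicate 1 was above all 3 Cdc42f/f libraries for 11 members and below all 3 for 16, against 29.4% and 31.1% of all tested genes. Replicate 2 was above for 32 members and below for 8, against 32.2% and 30.9% of all tested genes. Replicate 3 was above for 53 members and below for 0, against 31.7% and 30.6% of all tested genes. These shares compare single libraries and have no replicate check.

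Among the antiviral genes, the Ifit family had the largest median in PgrCreCdc42f/f replicate 3, at 3.46 above the Cdc42f/f mean on the log2 scale, against 2.43 for Oas and 2.58 for Mx. Ifit3, a tetratricopeptide repeat protein induced by interferon, was at 12.7, 12.4 and 218 RPKM in PgrCreCdc42f/f, against 19.6, 15.5 and 13.2 RPKM in Cdc42f/f (log2 difference 1.03, SE 1.08, adjusted p = 0.632). Ifit1, which binds RNA with an incompletely methylated cap, was at 8.87, 9.54 and 99.6 RPKM in PgrCreCdc42f/f and at 13.3, 10.4 and 9.86 RPKM in Cdc42f/f. In both genes replicates 1 and 2 of PgrCreCdc42f/f lay below all 3 controls, and replicate 3 was more than all other libraries by a ratio of 11.1 for Ifit3 and 7.48 for Ifit1. Ifit3b, a near copy of Ifit3, had the largest such ratio of all members, 14.3, at 4.61, 4.71 and 83.4 RPKM in PgrCreCdc42f/f against 5.84, 4.74 and 5.56 RPKM in Cdc42f/f. Reads of such close paralogs may be split between them.

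The Oas genes encode oligoadenylate synthetases, which sense double-stranded RNA and activate RNase L, and the Oasl genes encode related proteins. Oas1a was at 8.31, 13.2 and 52.2 RPKM in PgrCreCdc42f/f, against 11.7, 8.15 and 9.34 RPKM in Cdc42f/f. Oas3 was the lowest of the family and had the second largest log2 difference of the members, at 0.802, 1.80 and 12.8 RPKM in PgrCreCdc42f/f against 0.736, 0.409 and 0.598 RPKM in Cdc42f/f (log2 difference 2.07, SE 0.92, adjusted p = 0.266). Here replicate 2 was also above every control, as it was for 32.2% of all tested genes. It was so for 5 of the 7 Oas genes (Oas1a, Oas1g, Oas2, Oas3 and Oasl1) and for 0 of the 4 Ifit genes. Oasl2 differed from these, at 27.5, 42.2 and 203 RPKM in PgrCreCdc42f/f against 42.5, 46.3 and 50.7 RPKM in Cdc42f/f, so that both other PgrCreCdc42f/f libraries were below the controls. Oas2 had the same order of libraries as Oas1a in PgrCreCdc42f/f, with replicate 3 at 98.2 RPKM and the rest of the libraries between 10.4 and 19.5 RPKM.

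Mx1 and Mx2, the dynamin-like GTPases that block viral replication, were low outside PgrCreCdc42f/f replicate 3. Mx1 was at 2.41, 2.69 and 18.9 RPKM in PgrCreCdc42f/f and at 2.45, 1.97 and 2.50 RPKM in Cdc42f/f. Mx2 was at 2.19, 2.03 and 10.6 RPKM in PgrCreCdc42f/f and at 2.58, 1.96 and 2.31 RPKM in Cdc42f/f. For both, the first 2 PgrCreCdc42f/f libraries and the controls spanned less than 1 RPKM. The genotype difference did not pass the test (adjusted p = 0.458 for Mx1 and 0.583 for Mx2).

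The GTPase genes had a graded order, in which PgrCreCdc42f/f replicate 2 lay between the controls and replicate 3 for 10 of 11 genes. Over all tested genes, 32.2% were above every control in replicate 2. Gbp2, a guanylate-binding protein that coats pathogen vacuoles, was at 23.3, 37.1 and 62.9 RPKM in PgrCreCdc42f/f, against 17.4, 17.6 and 19.8 RPKM in Cdc42f/f. All 3 PgrCreCdc42f/f libraries were above the controls, and the log2 difference of 1.05 (SE 0.33) had the smallest p of all members, 0.0173 before adjustment. Without replicate 3 the log2 difference of Gbp2 was 0.69. Gbp7 had the same order, at 7.501, 10.5 and 25.1 RPKM in PgrCreCdc42f/f against 6.93, 5.46 and 6.32 RPKM in Cdc42f/f, and 11.3% of its exons are shared with another annotated gene. Gbp4 was the exception in the family. It was at 4.32, 4.99 and 15.9 RPKM in PgrCreCdc42f/f and at 5.46, 5.73 and 6.24 RPKM in Cdc42f/f, so that replicates 1 and 2 were below every control. Gbp6, of which 29.0% of the exons are shared with another annotated gene, was at 1.42, 2.12 and 7.58 RPKM in PgrCreCdc42f/f and at 1.98, 1.71 and 1.87 RPKM in Cdc42f/f.

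The immunity-related GTPases, which in mice act on the vacuoles of parasites and bacteria, had the same order. Igtp (Irgm3) was at 12.7, 18.7 and 57.7 RPKM in PgrCreCdc42f/f, against 13.7, 11.2 and 15.3 RPKM in Cdc42f/f, and 8.0% of its exons are shared with Irgm2. Irgm1, a regulator of the other members of its family, was at 9.39, 12.8 and 42.2 RPKM in PgrCreCdc42f/f and at 11.5, 9.08 and 12.0 RPKM in Cdc42f/f. Iigp1, an effector of the family, was at 7.79, 12.6 and 52.5 RPKM in PgrCreCdc42f/f and at 8.13, 7.02 and 9.75 RPKM in Cdc42f/f. In all 5 Irg genes replicate 2 of PgrCreCdc42f/f was above every control, against 32.2% of all tested genes. Replicate 1 lay within the range of the controls in all 5. The smallest adjusted p of the 5 genes was 0.309.

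The antiviral and GTPase classes were compared within each library, as the median over genes of log2(RPKM + 0.1) minus the mean of that gene in Cdc42f/f, a mean that includes the control itself where a control is described. In PgrCreCdc42f/f replicate 3 the antiviral median was 2.74 and the GTPase median 2.03, a difference of 0.71. The ratio to the Cdc42f/f mean in that library was 3.97 to 22.0 for the antiviral genes, with a median of 6.89, and 2.74 to 7.08 for the GTPase genes, with a median of 4.09. The order of the classes was the other way round in PgrCreCdc42f/f replicate 2, where the antiviral median was 0.18 and the GTPase median 0.61, a difference of -0.43. In that library 10 of 11 GTPase genes and 6 of 13 antiviral genes were above all controls, against 32.2% of all tested genes. PgrCreCdc42f/f replicate 1 had medians of -0.05 and -0.07, a difference of 0.02. Cdc42f/f replicates 1, 2 and 3 had differences of 0.15, -0.01 and -0.13, so those of PgrCreCdc42f/f replicates 2 and 3 lay outside the range of the controls on opposite sides. Each of these values is a single library, and their difference was not tested.

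Over the genotypes the classes were close. The median log2 difference between PgrCreCdc42f/f and Cdc42f/f was 0.93 for the antiviral genes and 0.99 for the GTPase genes, against 0.90 for all members. Antiviral minus GTPase was -0.06, and its sign changed with the library left out, from -0.13 without PgrCreCdc42f/f replicate 3 to 0.30 without PgrCreCdc42f/f replicate 2. Without PgrCreCdc42f/f replicate 3 the class medians were 0.13 for the antiviral genes and 0.27 for the GTPase genes. Within the antiviral class the families also separated in that fit, with medians of 0.14 for Oas, -0.23 for Ifit and 0.02 for Mx.

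**Figure D2:**
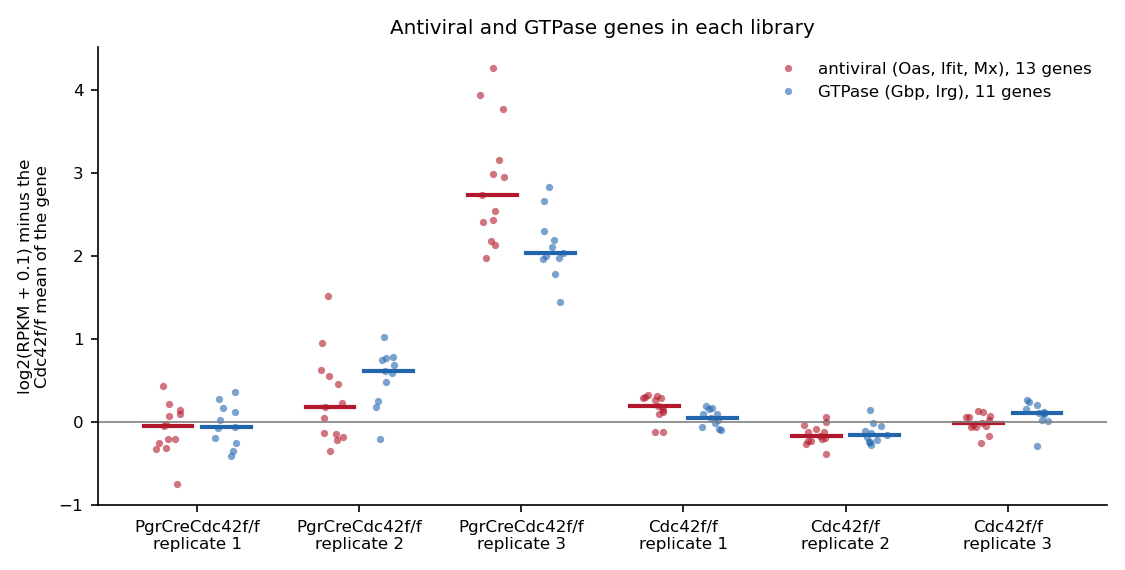
Points are single genes of the antiviral class (red, 13 genes) and the GTPase class (blue, 11 genes) in each library, as log2(RPKM + 0.1) minus the Cdc42f/f mean of that gene, and bars are medians. The antiviral median is above the GTPase median in PgrCreCdc42f/f replicate 3 (2.74 and 2.03) and below it in PgrCreCdc42f/f replicate 2 (0.18 and 0.61), while the controls stay near 0.

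Isg15, the ubiquitin-like modifier, and Usp18, the protease that removes it and dampens type I receptor signalling, were also highest in PgrCreCdc42f/f replicate 3. Isg15 was at 11.4, 12.6 and 176 RPKM in PgrCreCdc42f/f, against 17.9, 12.2 and 17.8 RPKM in Cdc42f/f. Usp18 was at 9.04, 9.86 and 41.4 RPKM in PgrCreCdc42f/f and at 12.0, 14.8 and 12.6 RPKM in Cdc42f/f. Replicates 1 and 2 were below all controls for Usp18, and replicate 1 was so for Isg15. The promoter of Isg15 was the one with 3 overlapping GAAANNGAAA matches.

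The sensors of foreign nucleic acid were at 2.46 to 4.39 times the Cdc42f/f mean in PgrCreCdc42f/f replicate 3, with 1 exception at 13.5 times. Ddx58 (RIG-I), a sensor of viral RNA, was at 9.89, 13.2 and 31.8 RPKM in PgrCreCdc42f/f and at 10.5, 8.48 and 9.54 RPKM in Cdc42f/f. Ifih1 (MDA5), which senses long double-stranded RNA, was at 5.35, 6.81 and 17.8 RPKM in PgrCreCdc42f/f and at 6.11, 5.34 and 5.65 RPKM in Cdc42f/f. Eif2ak2 (PKR), a kinase that halts translation, was at 11.6, 15.2 and 32.8 RPKM in PgrCreCdc42f/f and at 15.1, 11.4 and 13.5 RPKM in Cdc42f/f. Zbp1, a sensor of Z-form nucleic acid, was the exception. It was at 4.16, 7.34 and 50.5 RPKM in PgrCreCdc42f/f, against 3.46, 3.70 and 4.07 RPKM in Cdc42f/f, so that the groups did not overlap, although the difference did not pass the test (log2 difference 1.61, SE 0.85, adjusted p = 0.340).

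Of the 3 transcription factors, Irf7, which amplifies type I interferon production, had the widest range. It was at 10.02, 19.8 and 149 RPKM in PgrCreCdc42f/f, against 17.6, 20.6 and 23.5 RPKM in Cdc42f/f, so replicate 1 was the lowest of the 6 libraries and replicate 3 the highest. Irf9 was at 14.4, 16.6 and 37.1 RPKM in PgrCreCdc42f/f and at 17.1, 14.6 and 16.4 RPKM in Cdc42f/f. Stat2 was at 12.0, 14.9 and 60.4 RPKM in PgrCreCdc42f/f and at 11.4, 9.995 and 11.5 RPKM in Cdc42f/f. Irf9 and Stat2 are parts of the complex that binds the response element, and the adjusted p was 0.585 for Irf9 and 0.375 for Stat2.

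The other effectors held both the highest member and the only one that did not follow PgrCreCdc42f/f replicate 3. Ifi27l2a, a small hydrophobic interferon-induced protein, had the highest mean level, at 170, 169 and 990 RPKM in PgrCreCdc42f/f against 144, 150 and 157 RPKM in Cdc42f/f. Its relative Ifi27 was at 90.3, 91.8 and 104 RPKM in PgrCreCdc42f/f and at 106, 86.0 and 105 RPKM in Cdc42f/f. For Ifi27 replicate 3 lay inside the range of the controls, and the log2 difference of -0.05 (SE 0.11) was the only negative value among the members. Rsad2 (viperin), which makes an antiviral nucleotide, was at 2.83, 2.74 and 29.8 RPKM in PgrCreCdc42f/f, against 3.44, 3.92 and 4.03 RPKM in Cdc42f/f, with replicates 1 and 2 below every control. Bst2 (tetherin), which holds budding virions at the cell surface, was at 76.3, 64.5 and 263 RPKM in PgrCreCdc42f/f and at 76.0, 68.7 and 86.6 RPKM in Cdc42f/f. Xaf1 was at 16.9, 21.2 and 62.1 RPKM in PgrCreCdc42f/f and at 22.3, 17.5 and 32.0 RPKM in Cdc42f/f, and its highest control reached more than the first 2 PgrCreCdc42f/f libraries.

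A few members varied as much among the controls as between the genotypes. Ifi44l (chr3:151758737-151762892) had 2 recovered reads, 0.0334 RPKM, in Cdc42f/f replicate 1, against 401 and 469 reads in Cdc42f/f replicates 2 and 3. Its levels were 5.81, 7.27 and 45.04 RPKM in PgrCreCdc42f/f and 0.0334, 6.29 and 7.06 RPKM in Cdc42f/f. The neighbouring gene Ifi44 (chr3:151730922-151749960) had no such gap, at 5.65, 8.51 and 63.0 RPKM in PgrCreCdc42f/f and 6.97, 6.81 and 8.21 RPKM in Cdc42f/f. The log2 difference of Ifi44l, the largest of all members at 2.78 (SE 1.65, adjusted p = 0.394), was 0.89 without Cdc42f/f replicate 1.

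The p200 genes, which encode DNA-binding proteins of the AIM2-like receptor family, lie in a cluster on chromosome 1. Their controls differed from each other more than in any other family by the family median, which was 0.62, -0.19 and -0.42 in Cdc42f/f replicates 1, 2 and 3 on the log2 scale relative to the Cdc42f/f mean. Ifi213 was at 1.19, 1.19 and 12.5 RPKM in PgrCreCdc42f/f and at 1.97, 0.875 and 0.0727 RPKM in Cdc42f/f (log2 difference 1.97, SE 1.20, adjusted p = 0.406). Ifi204 was at 6.53, 8.57 and 32.1 RPKM in PgrCreCdc42f/f and at 5.80, 4.14 and 5.60 RPKM in Cdc42f/f. Ifi205 was at 2.45, 2.25 and 4.46 RPKM in PgrCreCdc42f/f and at 1.93, 0.884 and 1.61 RPKM in Cdc42f/f. The controls thus spanned a wide range for Ifi213 and a narrow one for Ifi204, and Ifi205 had the smallest gap between replicate 3 and the other libraries of the family.

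Among genes of the same cluster, chosen after their values were seen, Mndal and Ifi202b were each near 0 in libraries where the other was not. Mndal was at 9.86, 13.4 and 51.9 RPKM in PgrCreCdc42f/f and at 16.3, 5.97 and 0.346 RPKM in Cdc42f/f. Ifi202b was at 5.46, 9.17 and 0.164 RPKM in PgrCreCdc42f/f and at 0.0271, 3.46 and 7.97 RPKM in Cdc42f/f. PgrCreCdc42f/f replicate 3 and Cdc42f/f replicate 1 thus had the most Mndal and the least Ifi202b, Cdc42f/f replicate 3 had the least Mndal, and the other 3 libraries had both, in the same order for both genes. Ifi203, Ifi207, Ifi209, Ifi211 and Ifi213 had the same order as Mndal among the controls, while Ifi204 and Ifi205 did not. The p200 genes gave a median log2 difference of 1.24, and of 0.70 without PgrCreCdc42f/f replicate 3, the largest of the families in that fit. The part that this variation among libraries has in the p200 values was not tested. All 6 libraries are labelled C57BL/6, and whether their strain background was the same at these genes or at Ifi44l was not tested. This limits what the genotype differences of the p200 genes, Ifi204 and Ifi205 included, and of Ifi44l can show.

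**Figure D3:**
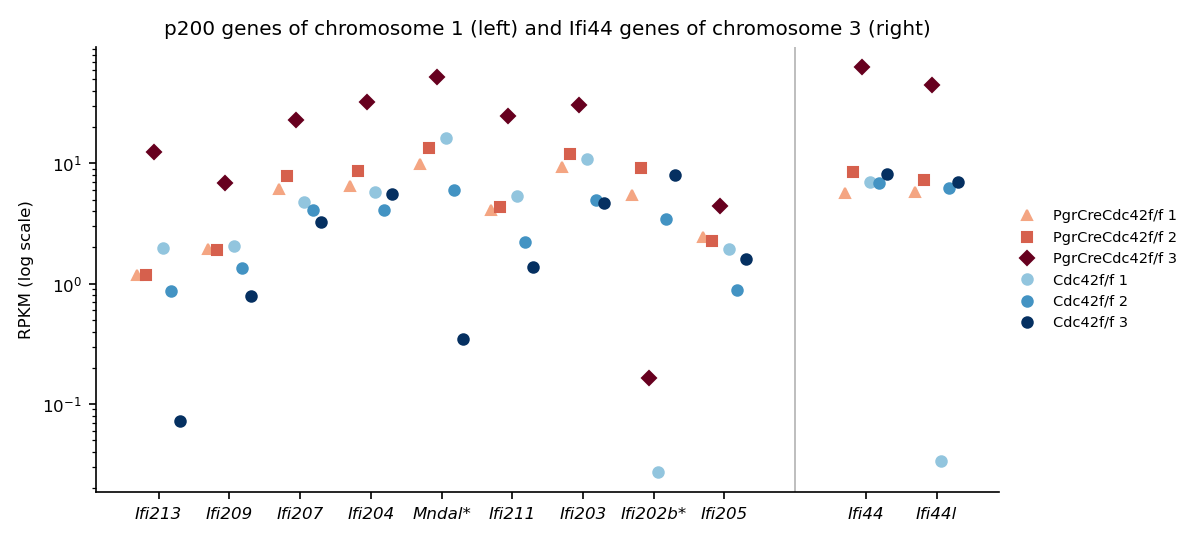
RPKM (log scale) of p200 genes in chromosomal order and of Ifi44 and Ifi44l, with PgrCreCdc42f/f libraries in red left of Cdc42f/f libraries in blue, and genes that are not members marked with an asterisk. Ifi202b is low in PgrCreCdc42f/f replicate 3 (0.164 RPKM) and Cdc42f/f replicate 1 (0.0271 RPKM), Mndal is low in Cdc42f/f replicate 3 (0.346 RPKM), and Ifi44l is near 0 in Cdc42f/f replicate 1 alone.

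At least 1 (log2) below each of the other 5 libraries were 0 members in PgrCreCdc42f/f replicates 1, 2 and 3, against 0.563%, 0.529% and 0.5% of all tested genes. In Cdc42f/f replicates 1, 2 and 3 there were 1, 0 and 1 such members, against 0.461%, 0.461% and 0.381% of all tested genes. The first was Ifi44l and the other Ifi213.

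The genes upstream of the members were read for the same libraries. Of 21 interferon genes, 13 had no read in any library and only Ifne, which is made constitutively by epithelia of the reproductive tract, passed the filter on low values. Ifne was at 3.35, 4.33 and 5.11 RPKM in PgrCreCdc42f/f and at 4.12, 2.86 and 5.68 RPKM in Cdc42f/f. Ifnb1 had 1 read in PgrCreCdc42f/f replicate 3 and 1 read in Cdc42f/f replicate 3, and none elsewhere. Ifna2 and Ifna6 had 2 reads each in PgrCreCdc42f/f replicate 3 and 0 in the other 5 libraries. Ifnz had 0, 0 and 6 reads in PgrCreCdc42f/f and 2, 0 and 2 reads in Cdc42f/f. Ifna15 had 2 reads in PgrCreCdc42f/f replicate 1 and 0 in the other 5 libraries. Ifnk had 9, 4 and 7 reads in PgrCreCdc42f/f and 3, 0 and 3 reads in Cdc42f/f, so it was highest in replicate 1. PgrCreCdc42f/f replicate 3 was the highest library for 4 of the 21 genes, at read numbers too low for a difference to be shown. Ifna2, Ifna6, Ifna15, Ifnk and Ifnz were named after their values were seen. Ifng was at 0.0330, 0.0545 and 0 RPKM in PgrCreCdc42f/f and at 0, 0.10005 and 0.0320 RPKM in Cdc42f/f. These were 2, 3 and 0 reads in PgrCreCdc42f/f and 0, 6 and 2 reads in Cdc42f/f, again too few for a difference to be shown.

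None of the 6 receptor genes was called. Ifnar1 was at 13.8, 14.99 and 13.6 RPKM in PgrCreCdc42f/f against 12.7, 12.4 and 12.3 RPKM in Cdc42f/f, and Ifnar2 was at 13.2, 11.9 and 14.6 RPKM against 13.4, 14.2 and 14.9 RPKM. Ifngr1 was at 22.3, 21.9 and 19.0 RPKM in PgrCreCdc42f/f and at 14.8, 15.5 and 16.7 RPKM in Cdc42f/f (log2 difference 0.42, SE 0.09, adjusted p = 0.0734). Its groups did not overlap, yet replicate 3 was the lowest of the PgrCreCdc42f/f libraries. Ifngr2, Ifnlr1 and Il10rb had adjusted p values between 0.504 and 0.871.

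Among 9 JAK, STAT and IRF genes 0 were called. Irf1, the early factor of the type II response, was at 11.3, 13.3 and 16.5 RPKM in PgrCreCdc42f/f and at 8.98, 10.02 and 11.3 RPKM in Cdc42f/f (adjusted p = 0.201). Of 9 genes of the induction machinery, Tmem173 (STING), the adaptor of cytosolic DNA sensing, was called higher. It was at 21.8, 21.9 and 22.3 RPKM in PgrCreCdc42f/f, against 10.8, 12.2 and 11.2 RPKM in Cdc42f/f (log2 difference 0.94, SE 0.08, adjusted p = 0.0107). Unlike the members, it was even over the 3 PgrCreCdc42f/f libraries, and without replicate 3 its log2 difference was also 0.94.

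The list of antigen presentation and type II interferon genes had 0 of 21 tested genes called and a median log2 difference of 0.44. Cxcl10, a chemokine of both responses, was at 1.54, 3.11 and 12.8 RPKM in PgrCreCdc42f/f and at 1.02, 1.09 and 1.44 RPKM in Cdc42f/f (log2 difference 1.68, SE 0.70, adjusted p = 0.242). Cxcl9, which is induced mainly by type II interferon, was at 0.0993, 0.578 and 0.425 RPKM in PgrCreCdc42f/f and at 0.748, 0.659 and 0.811 RPKM in Cdc42f/f. All 3 PgrCreCdc42f/f libraries were thus below every control at a low level, and replicate 1 was the lowest. B2m, the light chain of class I molecules, was chosen after its values were seen, at 1162, 2212 and 2281 RPKM in PgrCreCdc42f/f against 837, 1035 and 1235 RPKM in Cdc42f/f. For B2m replicate 2 was nearly as high as replicate 3, and its adjusted p was 0.201. Of 52 other tested interferon-stimulated genes 0 were called, 50 had a positive log2 difference with a median of 0.52, and 49 were highest in PgrCreCdc42f/f replicate 3.

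Markers of immune cells were read beside the members. By the study's immunostaining, leukocytes and macrophages were more numerous in the isthmus of PgrCreCdc42f/f mice. The 9 macrophage markers were all detected and 0 were called. In 5 of the 9 every PgrCreCdc42f/f library was above every control, against 13.5% of all tested genes. The 9 markers summed to 195, 258 and 325 RPKM in PgrCreCdc42f/f and to 148, 157 and 159 RPKM in Cdc42f/f. C1qa and C1qb made up most of this sum. The median over the 9 markers of log2(RPKM + 0.1) relative to the controls was 0.33 for PgrCreCdc42f/f replicate 1, 0.68 for replicate 2 and 0.56 for replicate 3, so by the median replicate 2 was the highest. The 5 T cell markers (Cd3e, Cd3d, Cd4, Cd8a and Cd2) summed to 3.54, 4.18 and 2.76 RPKM in PgrCreCdc42f/f and to 2.73, 3.14 and 4.02 RPKM in Cdc42f/f. The 6 NK cell markers summed to 3.78, 4.88 and 4.66 RPKM in PgrCreCdc42f/f and to 2.79, 3.91 and 2.51 RPKM in Cdc42f/f. Nkg7 was the largest term of that sum. The median on the log2 scale over the 3 tested NK markers was 0.32, 0.66 and 0.79 in PgrCreCdc42f/f replicates 1, 2 and 3, so by the median replicate 3 was the highest. It was -0.09, 0.30 and -0.19 in Cdc42f/f replicates 1, 2 and 3, and 0 were called. The 4 plasmacytoid dendritic cell markers summed to 5.60, 4.36 and 6.73 RPKM in PgrCreCdc42f/f and to 5.70, 5.80 and 5.62 RPKM in Cdc42f/f, and none was at 0 in all libraries. Ly6d was the largest term of that sum in every library. Siglech was at 0.518, 0.494 and 0.770 RPKM in PgrCreCdc42f/f against 1.16, 1.76 and 1.37 RPKM in Cdc42f/f, and Pacsin1 was also below every control in each PgrCreCdc42f/f library, while Ly6d was above them. The 6 neutrophil markers summed to 34.2, 17.6 and 15.3 RPKM in PgrCreCdc42f/f and to 6.82, 9.83 and 6.54 RPKM in Cdc42f/f, with S100a9 the largest term. In 4 of the 6 (S100a8, S100a9, Csf3r and Cxcr2) every PgrCreCdc42f/f library was above every control, against 13.5% of all tested genes. Of these S100a8 was called higher, at 7.21, 3.90 and 3.57 RPKM in PgrCreCdc42f/f against 0.995, 1.24 and 0.896 RPKM in Cdc42f/f (adjusted p = 0.0313), and it was highest in replicate 1. Ly6g was at 0.863, 0.24996 and 1.04 RPKM in PgrCreCdc42f/f and at 1.27, 1.15 and 1.76 RPKM in Cdc42f/f, so it lay below every control. The part of these cells in the levels of the members was not tested.

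**Figure D4:**
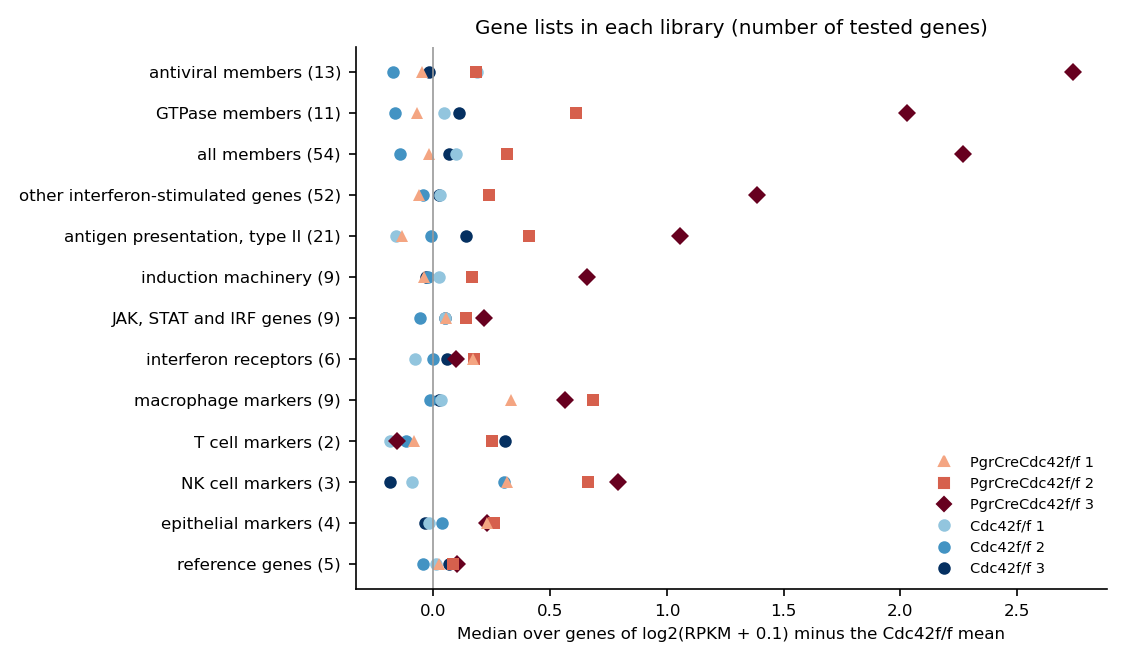
Each point is the median over the tested genes of a list of log2(RPKM + 0.1) minus the Cdc42f/f mean in 1 library, with PgrCreCdc42f/f in red and Cdc42f/f in blue and the number of genes in brackets. PgrCreCdc42f/f replicate 3 is at 2.27 for all members, 1.39 for other interferon-stimulated genes, 0.22 for JAK, STAT and IRF genes and 0.10 for the receptors.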

How the data were processed

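The authors deposited a table of RPKM values per gene symbol for 6 oviduct libraries of total RNA, with 0 columns of other samples. The submitters' processing notes name HISAT2, edgeR and mm10 (GRCm38), whereas the study's methods name Tophat2, and which made the table is not stated. Counting by strand is not given in the sources used here. Multiplying by GENCODE M21 exon lengths gave whole reads, within 0.01, in all libraries for 98.8% of 35362 rows.

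Genes of at least 0.5 RPKM in at least 3 libraries were tested on log2(RPKM + 0.1), a scale that understates changes of low genes, with limma 3.58.1 (R 4.3.3, variance trend, 3 against 3, no covariates), with Benjamini-Hochberg adjustment across every tested gene and a call at an adjusted p below 0.05. All 54 members passed. P values measure the spread between these libraries. The fit was tested on simulated data.

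Members and lists were chosen with earlier results of these data known. Named were a set list of members, called members, those with the highest and lowest mean, the 3 largest and 3 smallest differences, and of other lists the called genes, receptors, Ifng, Ifnb1, Irf1, Cxcl9 and Cxcl10. A gene of that rule is not reported here. Other genes named with values were chosen after their values were seen. Alternatives covered the pseudocount, filter, scaling, variance trend, replicate block, voom on recovered reads (Isg15 not included), each library left out and the class without Ifi47. Tables were made with Python 3.11.15 and pandas 2.3.3.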

Additional observations from a re-analysis of the deposited data

How the results depend on the processing

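No member was called under any of the alternatives tried, whose counts at an unadjusted p below 0.05 ran between 1 and 22. Calls over all genes, 291 as reported, were 108 with no filter, 187 with no variance trend, 512 by voom on recovered reads and 12 to 311 with 1 library left out. The replicate block called 0 genes. Same-numbered libraries had correlations of -0.03, -0.07 and 0.08 over genes, which show no pairing by number but cannot exclude it. Calls over all genes fell to 57 without PgrCreCdc42f/f replicate 3, 16 without replicate 2, and 35, 16 and 12 without Cdc42f/f replicates 1, 2 and 3, and the cause was not tested. Left-out libraries moved the antiviral median between 0.13 and 1.48, the GTPase median between 0.27 and 1.37 and their difference between -0.13 and 0.30. Without PgrCreCdc42f/f replicate 3 the log2 difference turned negative for 18 members. Of these Ifit3b was then at -0.20, Dhx58 at -0.36, Rtp4 at -0.18 and Cmpk2 at -0.044, and the others were Oasl2 (-0.44 to 0.997 over left-out libraries), Ifit1 (-0.27 to 1.47), Ifit3 (-0.34 to 1.72), Mx2 (-0.10 to 1.06), Gbp4 (-0.32 to 0.61), Gbp6 (-0.087 to 1.08), Isg15 (-0.39 to 1.58), Usp18 (-0.47 to 0.63), Irf7 (-0.53 to 1.41), Irf9 (-0.052 to 0.63), Rsad2 (-0.43 to 1.27), Ifi44 (-0.073 to 1.65), Bst2 (-0.13 to 0.88) and Xaf1 (-0.30 to 0.64). Ifngr2 ran from -0.073 to 0.17, and was -0.056 without PgrCreCdc42f/f replicate 2. Genes standing apart in PgrCreCdc42f/f replicate 3 were 40, of which 20 were members, with a margin of 2 in place of 1, and 108, of which 48 were members, with a pseudocount of 1. Scaling by median ratios or quantiles left 53 members positive. Tmem173 and S100a8 lost their calls under the replicate block and without some libraries, while their log2 differences stayed within 0.91 to 0.995 and 1.75 to 2.25 over left-out libraries. With 3 libraries a genotype, leaving out 1 library of unknown animal number, PgrCreCdc42f/f replicate 3, turned the sign for 18 members. It lowered the median log2 difference over all members from 0.90 to 0.14. The depth allows no statement on interferon genes with 0 or 1 read.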
